A study of Mus musculus with 12 samples.

Results

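NF-κB subunits and IκB regulators are described here as 10 genes chosen by name: Nfkb1, Nfkb2, Rel, Rela and Relb, which encode the subunits, and Nfkbia, Nfkbie, Nfkbid, Nfkbiz and Tnfaip3, which encode proteins that hold the pathway in check or work with the subunits in the nucleus. All 10 were present among the 11022 genes of the deposited table, so 10 of 10 listed genes were analysed. The cells were P14 cytotoxic T lymphocytes (CTL), mouse CD8+ T cells that carry a transgenic T cell receptor (TCR) for the gp33-41 peptide of a viral glycoprotein. The methods state that lymph nodes or spleens of 3 female P14 mice, 9 to 13 weeks old, gave 3 biological replicates. Cells were activated with peptide for 48 h, grown for a further 5 days in IL-2 and used on day 7. All cultures were in IL-2 at 20 ng/mL. The 4 groups had 3 cultures each. Unstimulated CTL received no peptide, TCR cultures received peptide at 100 ng/mL for 4 h, TCR+PI3Kdi cultures received the same peptide with 10 µM IC87114, which blocks the lipid kinase PI3K p110δ, and TCR+MEKi cultures received it with 2 µM PD184252, an inhibitor of MEK, the kinase that activates ERK1/2. The methods name DMSO as the vehicle control. At rest is used below for the unstimulated CTL, which were effector cells kept in IL-2 and not quiescent T cells. No group received an inhibitor without peptide, and each inhibitor was used at 1 dose and 1 time.

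In a resting T cell most NF-κB dimers are held in the cytoplasm by IκB proteins. Antigen receptor signals pass through protein kinase C-θ and adaptor proteins to the IκB kinase (IKK), which marks IκB for destruction and frees the dimers to enter the nucleus. Many genes that NF-κB switches on encode its own subunits and inhibitors, so their mRNA is a common readout of the pathway and part of its feedback. The present values are mRNA levels and do not measure protein, nuclear entry or binding to DNA.

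Upstream sequences are shown first for the 6 genes with a match to the κB consensus, the DNA pattern that NF-κB dimers bind. They were chosen by that match. Windows without a match, that of Rela and some of Nfkbid and Tnfaip3, are not printed. The sequences lie before RefSeq start sites on GRCm38.p6 and are read 5′ to 3′ on the strand of the gene. Matches to the κB consensus on either strand are in capitals. The 250 bases before the start site are printed, less any base that lies in an annotated untranslated region of the same gene, with the exception of Nfkb2. The Nfkbia stretch is chr12:55492648-55492897, minus strand, and its match ends 20 bases before the start site.
Nfkbia: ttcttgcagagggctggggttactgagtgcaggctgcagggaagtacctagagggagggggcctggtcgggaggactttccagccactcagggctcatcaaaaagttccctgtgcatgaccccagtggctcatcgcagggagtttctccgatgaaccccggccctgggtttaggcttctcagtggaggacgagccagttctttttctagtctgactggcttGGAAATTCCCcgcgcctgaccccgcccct
The Nfkbid stretch is chr7:30422156-30422405, plus strand, before a second start site inside the gene, with 2 separate matches.
Nfkbid: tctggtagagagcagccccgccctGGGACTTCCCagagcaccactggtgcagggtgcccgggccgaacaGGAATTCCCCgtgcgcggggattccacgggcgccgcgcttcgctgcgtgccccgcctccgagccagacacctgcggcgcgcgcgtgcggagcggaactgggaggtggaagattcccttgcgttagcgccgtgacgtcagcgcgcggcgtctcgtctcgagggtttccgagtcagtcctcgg
The Nfkbie stretch is chr17:45555450-45555699, plus strand, with a match that ends 97 bases before the start site.
Nfkbie: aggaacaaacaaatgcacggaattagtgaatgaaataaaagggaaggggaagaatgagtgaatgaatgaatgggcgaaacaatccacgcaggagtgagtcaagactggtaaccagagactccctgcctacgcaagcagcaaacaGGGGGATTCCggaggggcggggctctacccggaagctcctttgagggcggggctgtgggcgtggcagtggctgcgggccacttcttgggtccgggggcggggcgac
The Rel stretch is chr11:23770971-23771219, minus strand, where a pair of overlapping matches runs from 92 to 82 bases before the start site.
Rel: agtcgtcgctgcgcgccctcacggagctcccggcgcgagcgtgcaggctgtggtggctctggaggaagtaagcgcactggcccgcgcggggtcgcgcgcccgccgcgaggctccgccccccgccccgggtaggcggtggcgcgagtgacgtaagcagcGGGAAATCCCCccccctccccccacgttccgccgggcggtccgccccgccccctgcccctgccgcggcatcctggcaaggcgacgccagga
The Tnfaip3 stretch is chr10:19015411-19015547, minus strand, with matches that end 116 and 3 bases before the start site.
Tnfaip3: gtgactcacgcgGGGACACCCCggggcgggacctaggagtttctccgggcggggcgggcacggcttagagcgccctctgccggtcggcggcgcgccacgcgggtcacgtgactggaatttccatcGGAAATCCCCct
For Nfkb2 all 250 bases before the first start site lie in untranslated exons of the gene and in exons of the antisense gene AC114539.1, so a 30-base stretch is shown, chr19:46304688-46304717, plus strand, which holds overlapping matches.
Nfkb2: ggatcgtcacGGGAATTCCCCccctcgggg

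RefSeq windows of 250 bases before to 50 bases after a start site were matched for 7 of the 10 genes, as 12 windows, since some genes have several start sites. The genes without an entry were Nfkb1, Relb and Nfkbiz. A κB consensus match lay in 8 of the 12 windows, those of 6 genes, whereas 8.46% of all 32851 windows held one, and 10.6% of the 10176 windows of genes in the table. The AP-1 pattern TGACTCA, searched on both strands, was found in the windows of Tnfaip3 and Nfkbie and in 5.20% of all windows (3.61% for genes in the table). It did not overlap a κB match in either gene. The cyclic AMP response pattern TGACGTCA was found in the Nfkbid window and in 1.79% of all windows (3.25% for genes in the table). Binding was not measured, and a match describes the letters only.

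Total reads were not in the table, and the steps between low values put the effective depth at roughly 7900000 to 13240000 fragments per culture. That estimate was weakly resolved. By it, the value of the 10 genes with the fewest fragments, Relb in unstimulated replicate 1, rested on about 158, and counting error there was about 7.95% of the value. All 8 listed CTL marker genes were in the table, and no B cell (0 of 5) or erythroid (0 of 5) marker was. Of the myeloid and dendritic cell markers 3 of 8 were present, with a summed level of 43.9 to 58.0 FPKM over the cultures, against 10344 to 16870 FPKM for the CTL markers. Most of that sum was Fcer1g, with group means of 39.0 to 48.3 FPKM. Group means were 6.89 to 8.19 FPKM for Cd68 and 0.41 to 0.577 FPKM for Itgax. Of the CD4 and regulatory T cell markers 2 of 3 were present, at 5.27 to 11.2 FPKM in sum, and Foxp3 was not listed. The 2 moved differently. Cd4 was at 0.773 ± 0.293 FPKM at rest, 2.69 ± 0.168 with TCR stimulation (log2 1.74, called higher), 2.94 ± 0.875 with IC87114 and 0.450 ± 0.193 with PD184252 (log2 -2.40 against TCR, called lower). Zbtb7b, which encodes ThPOK, a factor of CD4 T cell identity, was at 7.37 ± 0.949, 5.29 ± 0.287, 3.92 ± 0.636 and 9.95 ± 0.888 FPKM in the same order (SD, n = 3), log2 0.90 higher with PD184252 than with TCR alone, under the 2-fold threshold but past it at log2 1.15 when cultures were scaled to equal FPKM sums. Their part in the results below was not tested. These are bulk samples, so fewer cells of a type and less RNA per cell cannot be told apart.

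The first comparison asked how antigen changes the mRNA of the pathway in CTL. All 10 genes rose with TCR stimulation, by 2.31-fold to 24.4-fold, with Benjamini-Hochberg adjusted p under 0.05 and more than a 2-fold change in limma, the rule used for a call throughout. Of all 11022 genes, 8.87% were called higher in this comparison. For each of the 10 genes the 3 TCR cultures lay above the 3 unstimulated cultures without overlap, as did 34.7% of all genes. The median log2 fold change was 2.80 for the 10 genes and -0.01 for all genes. The FPKM scale sets a level per exon length and library size, so levels of different genes are compared on it below.

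**Figure D1:**
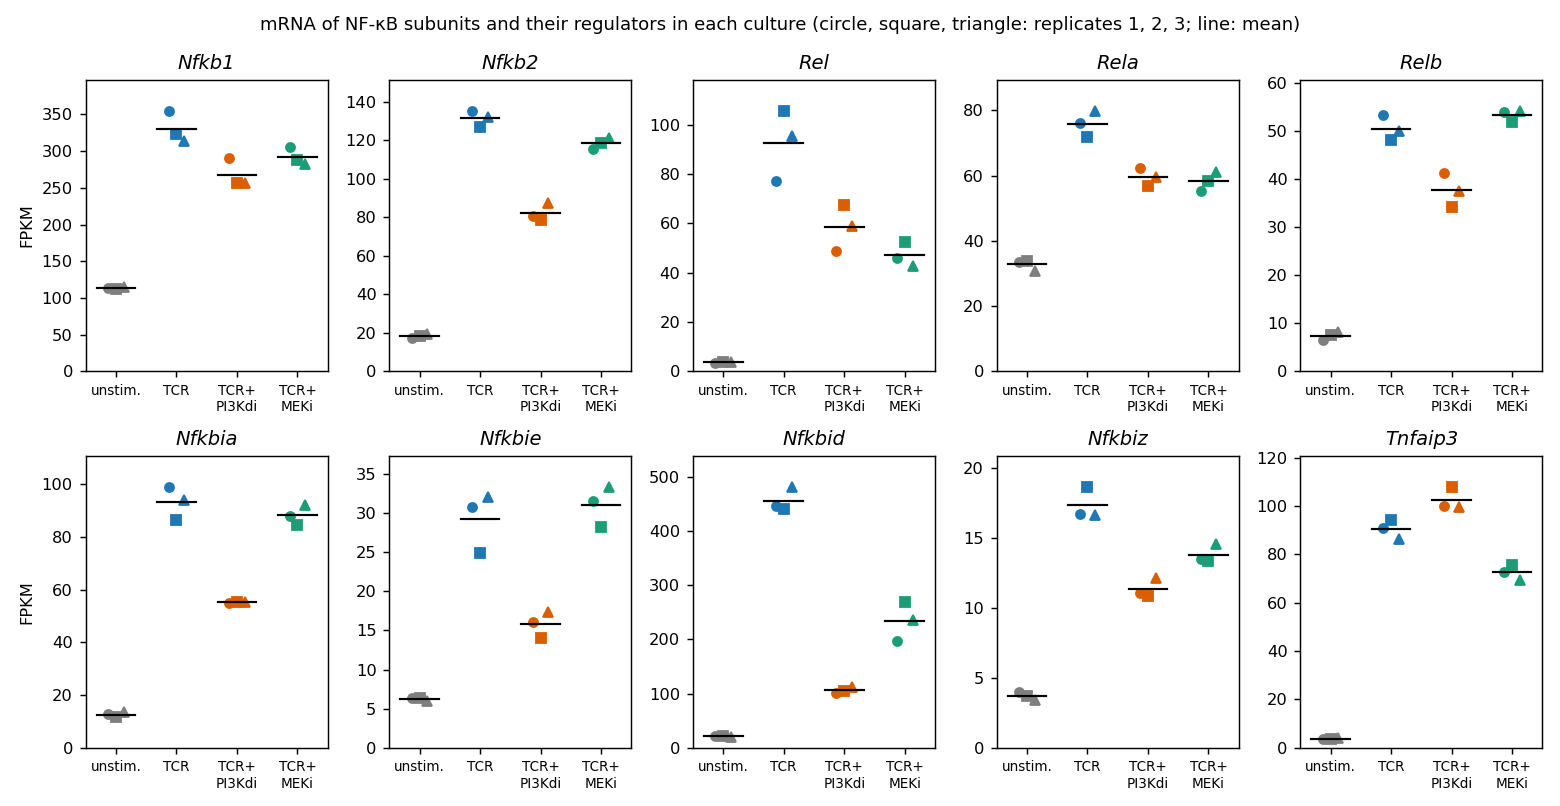
FPKM (vertical axis, linear, from 0) of the 10 genes in each of the 12 cultures, by group along the horizontal axis. Symbols are single cultures and lines are group means. Every TCR, TCR+PI3Kdi and TCR+MEKi culture sits above the unstimulated cultures for every gene, and Nfkbid shows the widest spread among the stimulated groups, from 102 to 481 FPKM.

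The precursor genes were the most abundant subunit genes in the TCR cultures, while at rest Rela stood between them. Nfkb1 (Entrez gene 18033, chromosome 3, 135584655 to 135691547, minus strand), which encodes p105 and its processed form p50, was at 114, 112 and 115 FPKM in unstimulated cultures and at 355, 324 and 313 FPKM after TCR stimulation. It was the most abundant of the 10 genes at rest, and its rise was 2.90-fold (log2 fold change 1.54, SE 0.06, limma adjusted p = 1.34e-11). Nfkb2 (Entrez gene 18034, chromosome 19, 46304320 to 46312385, plus strand) encodes p100, which is processed to p52. Its values were 17.4, 18.3 and 19.2 FPKM at rest and 135, 127 and 132 FPKM after stimulation, a 7.15-fold rise (log2 2.84, SE 0.06, adjusted p = 4.44e-15). The stimulated Nfkb2 cultures were close together and far above the unstimulated ones. In the annotation 830 of its exon bases overlap exons on the opposite strand, those of Psd and AC114539.1, and 12.3% of the 100-base stretches of its transcripts also occur there. The sources do not say whether strand was used in counting, so reads of Nfkb2 and of its antisense neighbours cannot be told apart. The other 9 genes had no such overlap.

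The subunits with a transactivation domain behaved less alike. Rel (Entrez gene 19696, chromosome 11, 23736847 to 23770970, minus strand), which encodes c-Rel, the subunit best known for IL-2 expression in T cells, was at 3.34, 3.79 and 3.91 FPKM in unstimulated cultures, level with Nfkbiz and Tnfaip3 at the low end of the 10 genes. After stimulation it was at 77.1, 106 and 95.3 FPKM, a 24.4-fold rise (log2 4.61, SE 0.12, adjusted p = 1.55e-13). Of the 11022 genes, 86 rose more. The rises of Rel and Tnfaip3, the highest of the 10, differed by less than their SE and could not be ranked. Rela (Entrez gene 19697, chromosome 19, 5637483 to 5648130, plus strand) encodes p65, the partner of p50 in the classical dimer. It went from 33.6, 33.8 and 30.9 FPKM to 76.0, 71.8 and 79.8 FPKM, the smallest rise of the 10 at 2.31-fold (log2 1.21, SE 0.06, adjusted p = 1.71e-10). Relb (Entrez gene 19698, chromosome 7, 19606217 to 19629438, minus strand), the partner of p52, rose 6.75-fold, from 6.44, 7.63 and 8.15 FPKM to 53.3, 48.0 and 49.9 FPKM (log2 2.76, SE 0.09, adjusted p = 7.30e-13). Rel and Rela thus stood far apart at rest and close together after stimulation.

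Genes of the inhibitory proteins rose as well. Nfkbia (Entrez gene 18035, chromosome 12, 55489410 to 55492647, minus strand), which encodes IκBα, the fast-acting feedback inhibitor, was at 12.6, 11.7 and 13.5 FPKM at rest and at 98.8, 86.5 and 94.2 FPKM after stimulation (7.35-fold, log2 2.88, SE 0.06, adjusted p = 1.70e-14). Nfkbie (Entrez gene 18037, chromosome 17, 45555703 to 45563169, plus strand) encodes IκBε, another cytoplasmic inhibitor, and went from 6.40, 6.38 and 5.94 FPKM to 30.8, 24.9 and 32.05 FPKM (4.60-fold, log2 2.20, SE 0.10, adjusted p = 6.16e-11). Its TCR replicate 2 was the low one of the 3. Tnfaip3 (Entrez gene 21929, chromosome 10, 19000910 to 19015657, minus strand) encodes A20, a ubiquitin-editing enzyme that dampens signals upstream of IKK. It was at 3.58, 3.59 and 3.88 FPKM at rest and at 90.7, 94.3 and 86.2 FPKM after stimulation, a 23.9-fold rise with little spread (log2 4.58, SE 0.06, adjusted p = 3.19e-17).

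The nuclear IκB proteins, which bind subunits on DNA rather than in the cytoplasm, were at opposite ends of the range of levels. Nfkbid (Entrez gene 243910, chromosome 7, 30421732 to 30428746, plus strand) encodes IκBNS. Its values were 22.4, 21.1 and 19.8 FPKM at rest and 446, 441 and 481 FPKM after stimulation (21.5-fold, log2 4.43, SE 0.09, adjusted p = 5.26e-15), which made it the most abundant of the 10 mRNAs in TCR cultures. Nfkbiz (Entrez gene 80859, chromosome 16, 55811375 to 55838899, minus strand) encodes IκBζ and went from 4.00, 3.69 and 3.44 FPKM to 16.7, 18.6 and 16.7 FPKM (4.58-fold, log2 2.20, SE 0.08, adjusted p = 6.45e-12). It was the least abundant of the 10 after stimulation. In the order of TCR means, Nfkbia at 93.2 ± 6.23 FPKM, Rel at 92.7 ± 14.4 FPKM and Tnfaip3 at 90.4 ± 4.06 FPKM (SD, n = 3) had overlapping cultures and could not be ranked. Rela at 75.9 ± 4.02 FPKM overlapped with Rel alone among these.

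The calls in this comparison depended on scaling for 1 gene. When each culture was rescaled so that all had equal FPKM sums (the TPM scale), the median of all genes moved to a log2 change of -0.41, and the higher genes made up 22.1% of all calls, against 44.4% before. On that scale 9 of the 10 genes were called higher, and Rela, at log2 0.80, was not. The 10 genes all had an adjusted p under 0.05 on both scales. By that rule 33.6% of all genes were higher before rescaling and 15.3% on the TPM scale.

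**Figure D2:**
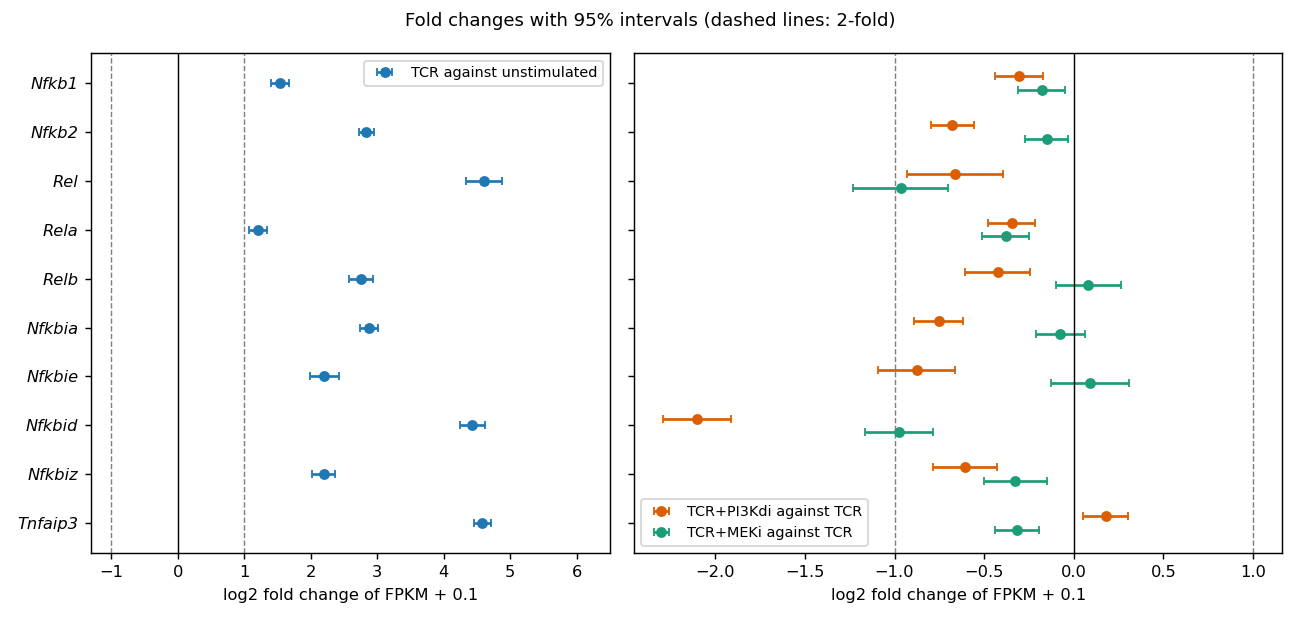
Log2 fold change (horizontal axis) of each gene with its 95% interval from limma, for TCR against unstimulated (left) and for each inhibitor group against TCR (right), with dashed lines at 2-fold. All 10 genes lie beyond the 2-fold line on the left, Nfkbid alone lies beyond it with the PI3K inhibitor, and none does with the MEK inhibitor.

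The second comparison asked which part of the stimulated level depends on PI3K p110δ. With IC87114, Nfkbid was called lower, and it was 1 of the 1.38% of all genes called lower in this comparison. The 3 TCR+PI3Kdi cultures were at 102, 105 and 112 FPKM, against 446, 441 and 481 FPKM in TCR cultures, so that TCR cultures had 4.29-fold more Nfkbid mRNA (log2 fold change -2.10, SE 0.09, limma adjusted p = 2.18e-09). The groups were widely separated, and 23 of the 11022 genes had a more negative log2 change. Of the rise with peptide, 19.6% ± 0.911 (SE) was kept, which put the inhibited level 5.02-fold above unstimulated cultures. No culture had IC87114 without peptide, so a lower baseline and a smaller rise cannot be told apart.

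At adjusted p under 0.05 without a fold threshold, 9 of the 10 genes were lower with IC87114 and Tnfaip3 was higher. Of all genes, 12.8% were lower and 12.7% higher by the same rule. The lower 9 did not overlap between groups, as was so for 18.6% of all genes in that direction. The median log2 change was -0.63 for the 10 genes and 0.02 for all genes.

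The cytoplasmic inhibitors followed Nfkbid in size. Nfkbie was at 16.1, 14.05 and 17.4 FPKM with the inhibitor (log2 -0.88, SE 0.10, adjusted p = 2.99e-05), and Nfkbia at 55.1, 55.2 and 55.3 FPKM (log2 -0.75, SE 0.06, adjusted p = 1.79e-06). The 3 Nfkbia values were nearly identical and lay well below the lowest TCR culture at 86.5 FPKM. Nfkb2 was at 80.7, 78.8 and 87.3 FPKM (log2 -0.68, SE 0.06, adjusted p = 1.29e-06). Rel was at 48.9, 67.7 and 59.0 FPKM (log2 -0.66, SE 0.12, adjusted p = 0.00141). Replicate 2 had the highest Rel value in each of the 3 stimulated groups, and the highest TCR+PI3Kdi culture, at 67.7 FPKM, was near the lowest TCR culture, at 77.1 FPKM. Nfkbiz was at 11.1, 10.9 and 12.2 FPKM (log2 -0.61, SE 0.08, adjusted p = 0.000123). Smaller differences were found for Relb (log2 -0.42, adjusted p = 0.00219), Rela (log2 -0.35, adjusted p = 0.000848) and Nfkb1 (log2 -0.31, adjusted p = 0.00223). All of these 8 genes were lower by less than 2-fold.

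Tnfaip3 went the other way. Its TCR+PI3Kdi cultures were at 100.0, 108 and 99.3 FPKM, each above the highest TCR culture at 94.3 FPKM (log2 0.18, SE 0.06, adjusted p = 0.0368). The difference was small, 1.13-fold, and on the TPM scale it was log2 0.36. On the TPM scale the median of all genes moved by 0.19 and the higher genes made up 52.7% of all calls, against 26.6% before. There 7 of the 10 genes remained lower at adjusted p under 0.05, the exceptions being Nfkb1, Rela and Tnfaip3. By that rule 5.04% of all genes were lower and 34.6% higher on that scale. Nfkbid was called lower under every scaling.

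With peptide and IC87114 together, levels stayed above those of unstimulated cultures, which had no inhibitor. Against unstimulated cultures 9 of the 10 genes were called higher, where 7.16% of all genes were. The exception was Rela, higher by log2 0.86 (adjusted p = 1.23e-08), under the 2-fold threshold. On the TPM scale Nfkb1, at log2 1.00, also fell just short of it.

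The third comparison asked which part of the stimulated level depends on MEK. With PD184252, 0 of the 10 genes were called lower in limma, where 2.51% of all genes were and 7 of the 10 had an unadjusted p under 0.05. Nfkbid and Rel lay just inside the 2-fold threshold. Nfkbid was at 197, 268 and 236 FPKM (log2 -0.97, SE 0.09, adjusted p = 1.26e-06), spread more widely than in the other groups and below every TCR culture. Rel was at 46.0, 52.6 and 42.8 FPKM (log2 -0.97, SE 0.12, adjusted p = 3.64e-05). Rel kept 48.9% ± 5.60 and Nfkbid 48.9% ± 4.94 (SE) of the rise with peptide. Both passed the fold threshold when TCR+MEKi replicate 2 was left out, at log2 -1.05 for Rel and -1.08 for Nfkbid, and Rel also without TCR replicate 1, at log2 -1.09.

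At adjusted p under 0.05 without a fold threshold, 7 of the 10 genes were lower with PD184252 and 0 higher, where 18.2% of all genes were lower. The 7 did not overlap between groups, as was so for 24.1% of all genes in that direction. Besides Nfkbid and Rel these were Rela (log2 -0.38, adjusted p = 0.000234), Nfkbiz (log2 -0.33, adjusted p = 0.00675), Tnfaip3 (log2 -0.32, adjusted p = 0.000751), Nfkb1 (log2 -0.18, adjusted p = 0.0345) and Nfkb2 (log2 -0.15, adjusted p = 0.0432). Tnfaip3 was at 72.6, 75.6 and 69.4 FPKM, below every TCR culture and below every TCR+PI3Kdi culture.

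Relb, Nfkbia and Nfkbie did not differ detectably between TCR+MEKi and TCR, and their cultures overlapped. Relb was at 54.0, 51.7 and 54.1 FPKM with the inhibitor, a log2 difference of 0.08 with a 95% interval of -0.10 to 0.26 (adjusted p = 0.489). Nfkbia was at 88.1, 84.6 and 92.3 FPKM, a log2 difference of -0.08 with an interval of -0.21 to 0.06 (adjusted p = 0.378). Nfkbie was at 31.5, 28.3 and 33.3 FPKM, a log2 difference of 0.09 with an interval of -0.13 to 0.31 (adjusted p = 0.512). The intervals of Relb and Nfkbie leave room for differences of that size in either direction, and that of Nfkbia reaches no higher than 0.06. None of them leaves room for a 2-fold change.

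Scaling had more bearing on this comparison. On the TPM scale the median of all genes moved by 0.26 and the higher genes made up 61.5% of all calls, against 28.1% before. On that scale Rel and Nfkbid remained lower, Relb, Nfkbia and Nfkbie were higher, and the other 5 did not pass adjusted p under 0.05. By that rule 50.2% of all genes were higher and 5.88% lower, so the higher direction was common there. Nfkb1 and Nfkb2 changed sign there, to log2 0.08 and 0.11. Against unstimulated cultures 9 of the 10 genes were called higher with PD184252, where 6.95% of all genes were, and Rela, at log2 0.83 (adjusted p = 1.97e-08), was again the exception.

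The inhibitor groups were then compared directly, which tests whether their effects differ, because both are read against the same TCR cultures. Nfkbid was called 2.19-fold higher in TCR+MEKi than in TCR+PI3Kdi cultures (log2 1.13, SE 0.09, limma adjusted p = 3.33e-07), and 1.39% of all genes were called higher. The call was not made by the stricter treat test, in which the 2-fold threshold is part of the null hypothesis. Without a fold threshold, 6 of the 10 genes were higher and Tnfaip3 was lower with the MEK inhibitor, where 14.5% of all genes were higher and 14.4% lower. The higher ones besides Nfkbid were Nfkbie (log2 0.97, adjusted p = 5.91e-06), Nfkbia (log2 0.68, adjusted p = 2.27e-06), Nfkb2 (log2 0.53, adjusted p = 6.28e-06), Relb (log2 0.51, adjusted p = 0.000433) and Nfkbiz (log2 0.28, adjusted p = 0.0189). Tnfaip3 was lower by log2 -0.50 (adjusted p = 1.89e-05), with no overlap between the groups.

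In this fit, which has no replicate block, Rel, Rela and Nfkb1 were not separated by the 2 inhibitors. Rel differed by log2 -0.30 with a 95% interval of -0.57 to -0.04 (limma adjusted p = 0.0826). With replicate number as a block Rel was separated, lower with the MEK inhibitor (limma adjusted p = 0.0114), though its cultures overlapped between the groups. Rela differed by log2 -0.03 with an interval of -0.16 to 0.10 (adjusted p = 0.712). Nfkb1 differed by log2 0.13 (adjusted p = 0.135). On the TPM scale Nfkb1 passed adjusted p under 0.05, higher with the MEK inhibitor (log2 0.21), where 21.1% of all genes were higher.

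**Figure D3:**
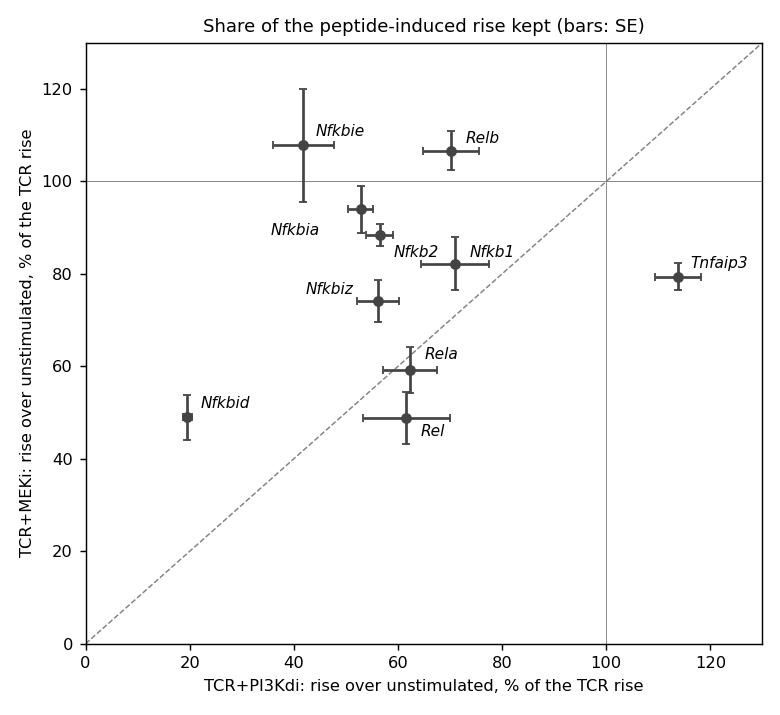
Rise over unstimulated cultures that remained with the PI3K inhibitor (horizontal axis) and with the MEK inhibitor (vertical axis), as a percentage of the rise in TCR cultures, with SE bars and a dashed line of equality. Both axes use the same TCR and unstimulated cultures, and the unstimulated cultures had no inhibitor. Tnfaip3 (113.8% and 79.4%) lies far below the line and Rela close to it. Far above it lie Nfkbie (41.8% and 107.8%), Nfkbia (52.9% and 94.0%), Relb (70.2% and 106.7%), Nfkb2 (56.5% and 88.4%) and Nfkbid (19.6% and 48.9%).

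Expressed as the rise kept, the genes fell in different orders for the 2 inhibitors. The baseline had no inhibitor, so for both a lower baseline and a smaller rise cannot be told apart. With IC87114 the share kept was lowest for Nfkbid at 19.6% and Nfkbie at 41.8% ± 5.85, then Nfkbia at 52.9% ± 2.38, Nfkbiz at 56.1% ± 4.00 and Nfkb2 at 56.5% ± 2.59. It was 61.6% ± 8.40 for Rel, 62.4% ± 5.15 for Rela, 70.2% ± 5.40 for Relb, 70.9% ± 6.57 for Nfkb1 and 113.8% ± 4.36 (SE) for Tnfaip3. With PD184252, Rel and Nfkbid were lowest, followed by Rela at 59.2% ± 5.02, Nfkbiz at 74.1% ± 4.48, Tnfaip3 at 79.4% ± 2.98, Nfkb1 at 82.2% ± 5.68 and Nfkb2 at 88.4% ± 2.36. Nfkbia at 94.0% ± 5.02, Relb at 106.7% ± 4.24 and Nfkbie at 107.8% ± 12.2 lay within 2 SE of the full rise. The SE of neighbouring genes overlapped in most places of both orders.

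Shares and ratios within a culture do not depend on library scaling, and they were used to describe the balance among the 10 mRNAs. No test was made on them. The summed level of the 5 subunit genes is neither a share nor a ratio and does depend on scaling. It was 176 ± 1.44 FPKM in unstimulated, 681 ± 13.4 in TCR, 506 ± 15.5 in TCR+PI3Kdi and 569 ± 7.32 in TCR+MEKi cultures (SD, n = 3). Of this sum, Nfkb1 made up 64.7% ± 0.772 at rest and 48.5% ± 2.17 after stimulation. Rel went from 2.09% ± 0.157 to 13.6% ± 2.32, Nfkb2 from 10.4% ± 0.452 to 19.3% ± 0.466 and Relb from 4.21% ± 0.468 to 7.40% ± 0.283. Rela went from 18.6% ± 1.06 to 11.1% ± 0.674 although its level rose. The unstimulated and TCR cultures did not overlap for any of the 5 shares.

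**Figure D4:**
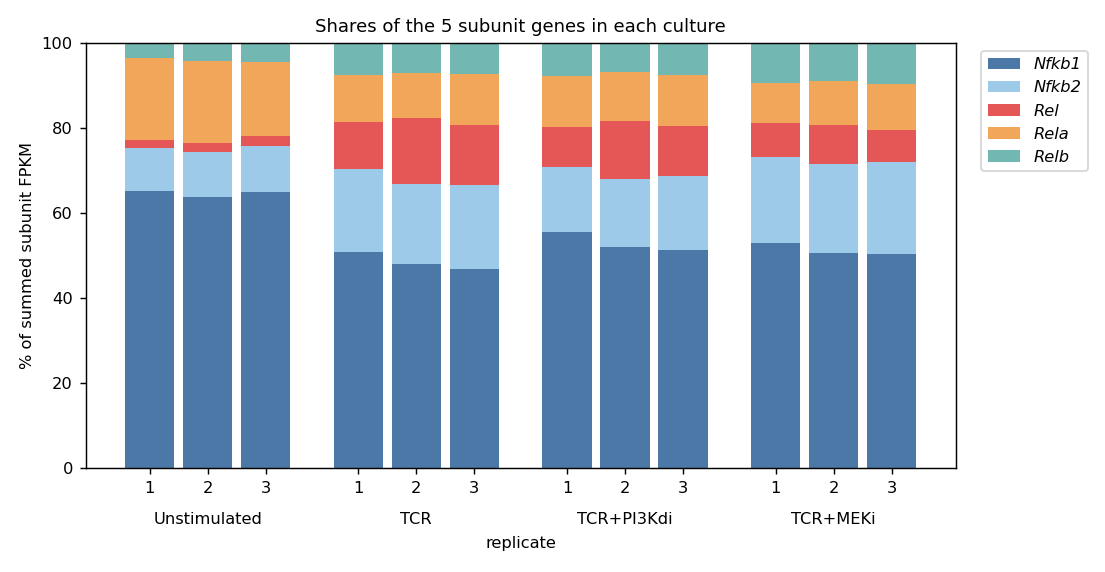
Share of each subunit gene (vertical axis, % of the summed FPKM of the 5) in each culture, grouped along the horizontal axis. Nfkb1 and Rela take up more of the unstimulated bars than of the stimulated ones, the Rel band widens from about 2.09% to 13.6%, and it is narrowest among the stimulated groups with the MEK inhibitor at 8.29%.

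The inhibitors left different balances. The ratio of Rel to Rela mRNA was 0.113 ± 0.0136 at rest, 1.23 ± 0.230 with TCR stimulation, 0.988 ± 0.205 with IC87114 and 0.812 ± 0.102 with PD184252 (SD, n = 3). The TCR+MEKi cultures, at up to 0.903, lay below the TCR cultures, at 1.015 or more, while those with IC87114 overlapped with both. Relb over Rel was 0.556 ± 0.122 with TCR stimulation, 0.661 ± 0.171 with IC87114 and 1.14 ± 0.143 with PD184252, and the last did not overlap with the other stimulated groups. Among the regulators, Nfkbid over Nfkbia was 1.68 ± 0.190 at rest, 4.91 ± 0.337 with TCR stimulation, 1.93 ± 0.0908 with IC87114 and 2.66 ± 0.474 with PD184252. The ratio of Tnfaip3 to Nfkbia was 0.974 ± 0.1002 with TCR stimulation and 1.85 ± 0.0851 with IC87114, with no overlap. With PD184252 it was 0.823 ± 0.0709, below the TCR cultures.

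The genes whose pattern over the 12 cultures was most like that of each of the 10 genes were found by Pearson correlation of log2(FPKM + 0.1), among the 9899 other genes with a mean of at least 1 FPKM. These values describe 12 cultures that share 4 conditions, so most of each correlation is the step with peptide. Nfkb2 and Nfkbia were each other's closest gene (r = 0.998). The closest genes were Slc1a5 for Nfkb1, Mpzl2 for Rel, Kdm6b for Rela, Irf8 for Relb, Stat5b for Nfkbie, Cd70 for Nfkbid, Slc35d3 for Nfkbiz and Nrp1 for Tnfaip3, with r from 0.993 to 0.998. The next closest included Il21 for Nfkb2 and Nfkbiz, Myc for Nfkbie, Bcl2l1 for Nfkbid and Ccl3 for Tnfaip3. Among the 10 genes themselves the lowest correlation was between Nfkbie and Tnfaip3 (r = 0.868), followed by that between Nfkbid and Tnfaip3 (r = 0.871).

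**Figure D5:**
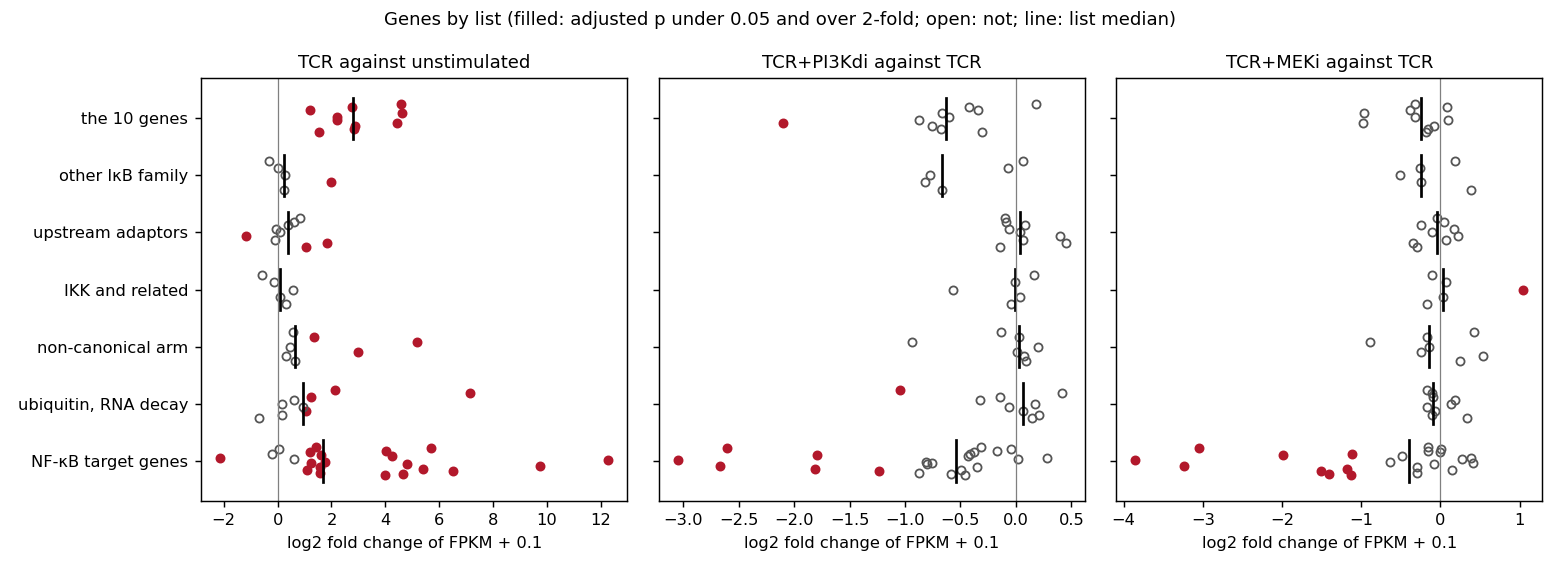
Log2 fold change (horizontal axis) of the genes of 7 lists (rows) in 3 comparisons (panels), each with its own horizontal range. Filled points were called at adjusted p under 0.05 and over 2-fold, open points were not, and lines are list medians. All 10 listed genes are filled with TCR stimulation, whereas the IKK list has no filled point there.

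Other genes of the pathway moved less uniformly. With TCR stimulation 8.87% of all genes were called higher and 11.1% lower. Among the remaining IκB family genes, 1 of 5 was called higher in that comparison and 0 lower. This was Nfkbib, which encodes IκBβ, at 22.9 ± 1.13 FPKM at rest and 90.6 ± 9.89 FPKM with peptide (log2 1.97, adjusted p = 8.18e-10), and it was at 51.8 ± 9.76 FPKM with IC87114 (log2 -0.82, adjusted p = 0.000138). Bcl3, a nuclear IκB protein, was at 21.7 ± 3.41 FPKM at rest, 25.3 ± 2.79 with TCR stimulation, 16.04 ± 3.04 with IC87114 and 33.1 ± 3.10 with PD184252. The inhibitor groups differed for Bcl3 by log2 1.05 (adjusted p = 4.29e-05), higher with the MEK inhibitor. Nfkbil1 (log2 0.26) was not called with TCR stimulation, nor were Nkiras1 (log2 0.01) and Nkiras2 (log2 -0.31), which encode small IκB-binding GTPases. The list median was log2 0.23.

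In a list of adaptors and kinases upstream of IKK, 2 of 9 genes were called higher with TCR stimulation and 1 lower. Of all genes, 8.87% were called higher and 11.1% lower. Malt1, which encodes a protease that cleaves A20, rose from 14.4 ± 0.229 to 51.8 ± 2.55 FPKM (log2 1.83, adjusted p = 3.15e-13). It was at 70.6 ± 2.44 FPKM with IC87114 and 40.6 ± 0.854 FPKM with PD184252, so it stood on the same sides of the TCR level as Tnfaip3. Bcl10, an adaptor, rose to 38.9 ± 1.82 FPKM (log2 1.06, adjusted p = 9.51e-09). Prkcq, which encodes protein kinase C-θ, fell from 70.8 ± 1.23 to 31.7 ± 1.30 FPKM (log2 -1.15, adjusted p = 4.65e-11). Neither inhibitor gave a call in this list, whose median with TCR stimulation was log2 0.38.

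None of the 5 genes of the IKK list was called with TCR stimulation (median log2 0.09, 3 of 5 past an adjusted and an unadjusted p of 0.05 in limma). At adjusted p under 0.05, 33.6% of all genes were higher and 34.9% lower. Chuk (log2 0.30), Ikbkb (log2 0.09) and Ikbkg (log2 -0.13) encode the classical complex, IKKα, IKKβ and NEMO, and Tbk1 was at log2 -0.57. Ikbke, which encodes the related kinase IKKε, was called higher with PD184252 than with TCR alone, where 0.980% of all genes were. Its mean was 11.2 ± 0.307 FPKM at rest, 16.6 ± 0.844 with TCR stimulation, 11.3 ± 1.49 with IC87114 and 34.5 ± 3.71 with PD184252 (log2 1.04, adjusted p = 1.31e-06).

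In the non-canonical arm TNF receptor family members lead to p100 processing. With TCR stimulation 8.87% of all genes were called higher. Of the genes of that arm, 3 of 7 in the table were called higher and 0 lower (median log2 0.65). They were Tnfrsf4 (OX40), at 4.11 ± 1.53 and 148 ± 29.5 FPKM, Cd27, at 14.5 ± 1.53 and 114 ± 3.35 FPKM, and Tnfrsf9 (4-1BB), at 279 ± 4.37 and 710 ± 23.3 FPKM. Neither inhibitor gave a call in this list, and Ltbr was not in the table. Of the ubiquitin and RNA regulators, 4 of 9 in the table were called higher, against the same 8.87% of all genes, and 0 lower (median log2 0.95). Tnip2 (log2 1.23) and Tnip3, which encode partners of A20, and Zc3h12a and Rc3h1 (log2 1.06), which encode the mRNA decay factors Regnase-1 and Roquin-1, were those 4. Tnip3 was near 0 at rest, at 0.0667 ± 0.0611 FPKM, and at 22.2 ± 1.42 FPKM with peptide. Zc3h12a rose to 28.1 ± 1.01 FPKM and was called lower with IC87114, at 13.6 ± 1.01 FPKM (log2 -1.05, adjusted p = 1.02e-06). On the TPM scale the fold threshold was not passed by Bcl10 (log2 0.65), Tnfrsf9 (log2 0.94), Tnip2 (log2 0.82) and Rc3h1 (log2 0.66) with peptide, nor by Zc3h12a with IC87114 (log2 -0.86), while Cyld, for another deubiquitinase, passed it downward with peptide (log2 -1.11).

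Of 22 genes commonly described as NF-κB targets, 18 were called higher and 1 lower with TCR stimulation (median log2 1.68). Of all genes, 8.87% were called higher and 11.1% lower. Scaled to TPM, 14 of the 22 were called higher and 1 lower. Icam1 (log2 0.83), Traf1 (log2 0.996), Myc (log2 0.80) and Cd69 (log2 0.67) no longer passed the fold threshold. At adjusted p under 0.05, 15.3% of all genes were higher and 60.9% lower on that scale. With IC87114, 6 of the 22 were called lower and 0 higher (median log2 -0.54), where 1.38% of all genes were called lower. With PD184252, 9 were called lower and 0 higher (median log2 -0.39), where 2.51% of all genes were called lower. Scaled to TPM the 6 stood, and 6 of the 9 did, without Ltb, Bcl2a1b and Cd83. At adjusted p under 0.05 on that scale, 5.04% of all genes were lower with IC87114 and 5.88% with PD184252. The 4 genes with the largest rise with peptide are cytokine genes and a gene of T cell help, which many other factors also control. Il2 was at 705 ± 57.3 FPKM with TCR stimulation, 87.2 ± 24.1 with IC87114 and 50.7 ± 17.1 with PD184252, and Csf2, for GM-CSF, at 3205 ± 96.8, 505 ± 54.6 and 347 ± 97.1. Cd40lg, for CD40 ligand, was at 112 ± 1.26, 47.5 ± 2.47 and 39.3 ± 3.13, and Tnf at 3252 ± 266, 539 ± 96.4 and 409 ± 147 FPKM. All 4 were called lower with each inhibitor, by more than any of the 10 genes except Nfkbid with IC87114, which lay between Cd40lg (log2 -1.23) and Tnf (log2 -2.61).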

How the data were processed

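The authors prepared stranded mRNA libraries from 300 ng of RNA, sequenced all 12 on 1 lane with 100-base paired reads, aligned them to mm10 with STAR 2.4.2a and counted fragments per RefSeq gene with Subread 1.5.0. Genes with low counts were removed, and the deposited FPKM values were made by the authors with edgeR from TMM-scaled counts and summed exon length. Strand use in counting was not stated. Columns were assigned by their headers (unassigned: 0).

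Here limma 3.58.1 (R 4.3.3) was fitted to log2(FPKM + 0.1) of all 11022 genes in the 12 samples, with a trend and no block, and p-values were adjusted over all genes by Benjamini-Hochberg. The pseudocount understates changes of low genes. Calls needed adjusted p under 0.05 and more than a 2-fold change. The procedure was tested on simulated data. The 10 genes and all lists were chosen with earlier results of these data known. From the other lists, genes were named when called in a main comparison, at most 4 per list by size, and the IKK and other IκB lists in full. 1 gene was left out of the lists and is not reported here. Like patterns were limited to the 3 highest correlations per gene. Alternatives were other pseudocounts, a filter at 1 FPKM, TPM and quantile scaling, a fit without the other groups, the replicate block, no trend, no fold threshold, treat, and leaving out each replicate. P-values measure the spread between the cultures. Approximate fragments cover counting error only.

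The sources do not say if a replicate number marks 1 mouse. After subtracting group means, cultures with equal numbers correlated across genes at 0.24 to 0.45 between TCR and TCR+PI3Kdi, 0.12 to 0.18 between TCR and TCR+MEKi, 0.14 to 0.15 between the inhibitor groups and 0.12 to 0.15 between unstimulated and TCR+MEKi, so the numbers were taken to pair these groups. Positions are from GENCODE M21 (GRCm38), upstream sequences from RefSeq. Python 3.11.15, NumPy 2.4.6, pandas 2.3.3 and matplotlib 3.10.9 were used.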

Additional observations from a re-analysis of the deposited data

Results flagged for a closer look

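For 7 of the 10 genes the effects of the inhibitors differed in the direct test (TCR+MEKi against TCR+PI3Kdi, limma, adjusted p under 0.05). Of all genes, 14.5% were higher and 14.4% lower by that rule. The log2 difference, MEK inhibitor minus PI3K inhibitor, was 1.13 for Nfkbid, 0.97 for Nfkbie, 0.68 for Nfkbia, 0.53 for Nfkb2, 0.51 for Relb, 0.28 for Nfkbiz and -0.50 for Tnfaip3. Quantile normalization and the TPM scale kept these 7 past that threshold in the same direction. On the TPM scale 21.1% of all genes were higher and 9.24% lower by it, and Nfkb1 passed it too (log2 0.21). With replicate number as a block Rel passed it too, at log2 -0.30 (limma adjusted p = 0.0114), though its cultures overlapped between the groups. The level of these mRNAs was read at 1 dose of each compound, and the extent to which each compound blocked its kinase was not measured in these data.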

How the results depend on the processing

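Of the calls of the 10 genes in 6 comparisons, none changed direction or side of the threshold with a pseudocount of 0.01 or 1, a filter at 1 FPKM, no trend or a fit of the compared groups alone. With the replicate block all 60 calls were as before, including those of the comparisons in which the numbers did not pair the cultures (correlations of 0.00 to 0.15 between unstimulated and TCR and of -0.06 to 0.11 between unstimulated and TCR+PI3Kdi). With the block, genes called over the table stayed within 1.5 times, and 10, 1, 0, 1, 9 and 9 of the 10 genes were called. At adjusted p under 0.05 without a fold threshold, the block added Rel in TCR+MEKi against TCR+PI3Kdi. Counts over the table, in the order TCR against unstimulated, TCR+PI3Kdi against TCR, TCR+MEKi against TCR, TCR+MEKi against TCR+PI3Kdi, TCR+PI3Kdi against unstimulated and TCR+MEKi against unstimulated, were 2202, 207, 385, 341, 1608 and 1478. They became 1405, 90, 201, 150, 979 and 873 with a pseudocount of 1, 7559, 2818, 4090, 3185, 6887 and 6571 without a fold threshold, and 1174, 27, 106, 64, 803 and 739 with treat.

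The number of the 10 genes called became 10, 7 and 7 for TCR+PI3Kdi against TCR, TCR+MEKi against TCR and TCR+MEKi against TCR+PI3Kdi without a fold threshold. For the last it was 2 on the TPM scale, where Nfkbie reached log2 1.05, and 0 with treat. Leaving out 1 culture at a time gave 0 to 2 genes for TCR+MEKi against TCR and 1 to 2 for TCR+MEKi against TCR+PI3Kdi, the second being Nfkbie without TCR+PI3Kdi replicate 3 (log2 1.04) or TCR+MEKi replicate 2 (log2 1.03). Over the table it gave 2172 to 2268, 195 to 241, 377 to 440, 330 to 368, 1581 to 1633 and 1466 to 1529 genes.

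The sign turned, all among differences under 2-fold, in TCR+MEKi against TCR for Nfkb1 (log2 0.084), Nfkb2 (0.11) and Nfkbia (0.19) on the TPM scale, for Nfkb1 (0.0047) and Nfkbia (0.070) after quantile normalization, and for Nfkbie without TCR replicate 2 (-0.021, in a range over the left-out cultures of -0.021 to 0.16). In TCR+MEKi against TCR+PI3Kdi it turned for Rela on the TPM scale (0.046) and without TCR+MEKi replicate 1 (0.0015, in a range of -0.069 to 0.0015). On the TPM scale higher genes made up 32.9% of the calls in TCR+PI3Kdi against unstimulated and 39.7% in TCR+MEKi against unstimulated, against 49.1% and 51.8% before. Why these values moved was not tested. Depth was known only approximately.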
